A study of Rattus norvegicus with 6 samples.

Results

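The 10 genes described here, Isg15, Usp18, Ifit2, Ifit3, Mx1, Mx2, Oas1a, Rsad2, Eif2ak2 and Ifi27, encode effectors of the antiviral interferon response. They were picked by symbol, with earlier results of these data known. Each matched a single row of the 32883 genes in the table, and all 10 were among the 14352 genes with enough counts to be tested. Total RNA was sequenced from the vestibular epithelium, the sensory tissue of the balance organs of the inner ear, of 6 adult male Long-Evans rats. In the IDPN-4wk group, 3 rats drank water with 20 mM of 3,3'-iminodipropionitrile (IDPN), a nitrile toxic to the hair cells of the inner ear, for 4 weeks, and in the Control group 3 rats drank water without it. The rats of both groups were 8 to 9 weeks old when they were received, and each library held the 2 utricles and 6 cristae of a single animal, whole and unsorted. The animal codes of the IDPN-4wk rats share one prefix and those of the controls carry others, so that whatever the prefix marks cannot be told apart from the treatment.

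Interferons are secreted proteins that cells release on sensing viral nucleic acid or other danger signals. Through their receptors they activate the transcription factor ISGF3, which binds the interferon-stimulated response element (ISRE) in front of many genes. The effectors act at separate steps of viral growth: ISG15 is a ubiquitin-like protein that is attached to other proteins and USP18 removes it, the OAS enzymes and PKR (Eif2ak2) respond to double-stranded RNA, the IFIT proteins bind RNA with foreign ends, the MX proteins and viperin (Rsad2) interfere with the assembly and copying of viral genomes, and IFI27 is a small hydrophobic protein induced by interferon alpha.

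The promoters are shown because the ISRE is the sequence through which these genes are known to respond. RefSeq promoter sequences of the build GRCr8, from 250 bases before to 50 after each gene's start, were given for 6 of the 10 genes, and not for Isg15, Usp18, Ifit2 and Mx2. Their last 180 bases before the start are written in the direction of the gene, and capitals mark the ISRE core, GAAANNGAAA on either strand, which reads TTTCNNTTTC when it lies on the other strand.
Oas1a, chr12:41330286-41330465, plus strand: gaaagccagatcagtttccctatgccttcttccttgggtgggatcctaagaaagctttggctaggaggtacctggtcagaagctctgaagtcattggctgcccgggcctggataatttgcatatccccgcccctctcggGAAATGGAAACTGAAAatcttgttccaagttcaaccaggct
Eif2ak2, chr6:21940974-21941153, plus strand: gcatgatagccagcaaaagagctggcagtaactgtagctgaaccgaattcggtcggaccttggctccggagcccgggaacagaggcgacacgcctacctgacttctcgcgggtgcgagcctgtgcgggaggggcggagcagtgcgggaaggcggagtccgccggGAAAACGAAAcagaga
Ifit3, chr1:241527146-241527325, plus strand: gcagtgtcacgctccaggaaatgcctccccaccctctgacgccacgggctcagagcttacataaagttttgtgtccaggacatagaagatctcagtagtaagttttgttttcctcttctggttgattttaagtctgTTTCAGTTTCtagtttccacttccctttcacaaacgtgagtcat
Rsad2, chr6:48788121-48788300, minus strand: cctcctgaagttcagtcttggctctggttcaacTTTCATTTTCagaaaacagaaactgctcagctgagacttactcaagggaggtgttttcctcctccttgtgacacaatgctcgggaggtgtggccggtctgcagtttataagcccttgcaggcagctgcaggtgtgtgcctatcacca
Ifi27, chr6:128355132-128355311, plus strand: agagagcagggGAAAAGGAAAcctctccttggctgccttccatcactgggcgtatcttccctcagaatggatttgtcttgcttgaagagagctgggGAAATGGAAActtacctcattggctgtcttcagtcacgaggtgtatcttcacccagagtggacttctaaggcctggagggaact
Mx1, chr11:50294607-50294786, minus strand: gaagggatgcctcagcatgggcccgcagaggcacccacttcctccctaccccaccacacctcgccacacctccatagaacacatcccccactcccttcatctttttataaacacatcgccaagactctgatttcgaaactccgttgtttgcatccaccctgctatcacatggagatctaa
The ISRE core stood in 5 of the 6 promoters, and in that of Mx1 these letters were not in the window. Position -1 is the base before the start. Oas1a held a pair of overlapping cores at -41 to -32 and -35 to -26, Eif2ak2 held 1 at -16 to -7, and Ifit3 held 1 on the opposite strand at -44 to -35. In Rsad2 the core lay farther away, at -147 to -138 on the opposite strand, and Ifi27 carried 1 at -169 to -160 and another at -84 to -75. The core was in 3.92% of the 33469 promoters of the table, in 2.91% of the 10302 promoters of tested genes and in 31.9% of the 69 promoters of the other tested genes of the pathway lists described further on. The related GAS letters, TTCNNNGAA, which read the same on both strands, were found only in Oas1a among the 6, at -199 to -191, and in 8.87% of all promoters. A match to these letters is a description of the sequence and not of binding.

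**Figure D1:**
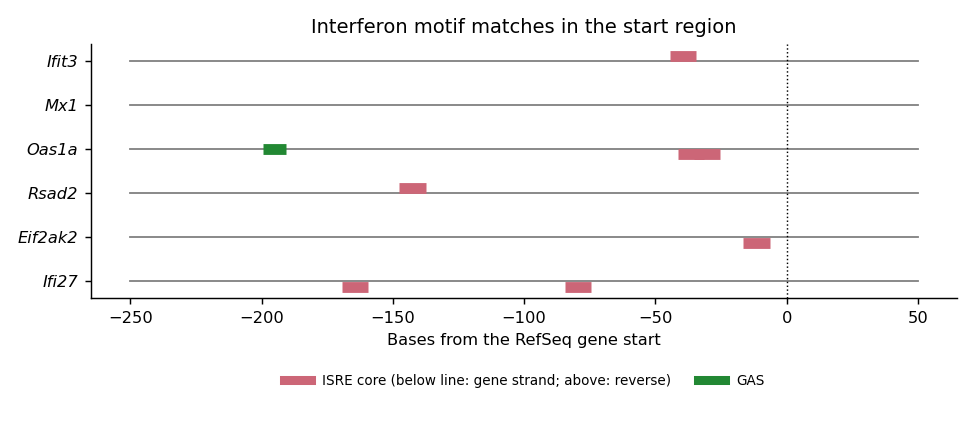
Positions of the ISRE core and of the GAS letters in the RefSeq promoters of 6 antiviral effector genes; the horizontal axis is the distance in bases from the gene's start, from 250 before to 50 after, and each mark is a match. All 8 matches lay before the start, and the promoter of Mx1 held none.

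Libraries held from 13358678 to 18561991 counts. Levels are given as CPM, counts per 1000000 after scaling by the trimmed mean of M values (TMM). A gene was called upregulated when the Benjamini-Hochberg adjusted p of the quasi-likelihood test of edgeR (Padj), over all tested genes, was under 0.05 and the fold change was over 1.5. CPM is not divided by gene length, so levels were compared between animals and not between genes. In whole tissue, more cells of a type and more RNA per cell cannot be told apart.

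Of the 10 effector genes, 8 were upregulated and 0 were downregulated in IDPN-4wk animals, whereas 3.09% of all tested genes were upregulated. As the 10 genes were chosen with earlier results of these data known, this contrast is a description and not a test. The 2 that did not pass were Mx1 and Ifi27. In the same 8 genes every IDPN-4wk library lay above every Control library, a separation seen in 18.5% of all tested genes. The median log2-Fold change of the 10 genes was 1.39, with a range from 0.33 for Mx1 to 2.52 for Usp18, beside a median of 0.02 over all tested genes.

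**Figure D2:**
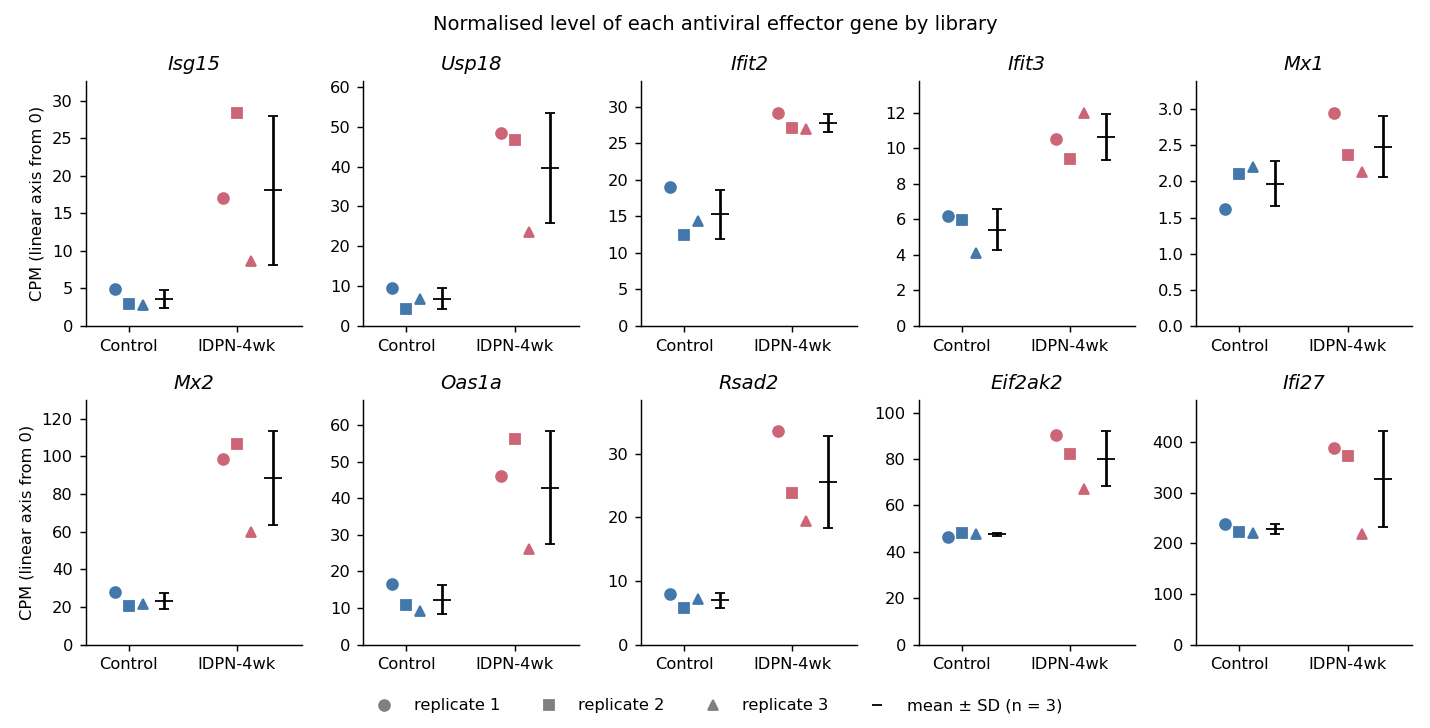
Level of each of the 10 genes in CPM (vertical axes from 0, a separate scale for each gene) in the 3 Control and 3 IDPN-4wk libraries; points are animals and the black bars are group means with the SD. The groups are apart in 8 genes and overlap in Mx1 and Ifi27.

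The largest estimates were those of the ISG15 system. Usp18, the protease that takes ISG15 off its targets and also dampens signalling from the type I interferon receptor (ENSRNOG00000037198), was at 9.56, 4.33 and 6.79 CPM in the Control libraries and at 48.4, 46.8 and 23.7 CPM in the IDPN-4wk libraries. Even the lowest IDPN-4wk library was above the highest control. The means were 6.89 ± 2.61 and 39.6 ± 13.8 CPM (± SD, n = 3 animals in each group), a 5.72-fold increase (log2-Fold change 2.52 ± 0.30, SE; Padj = 0.000307, edgeR). Isg15, the modifier itself (ENSRNOG00000021802), was at 4.97, 2.94 and 2.83 CPM in Control and at 17.1, 28.4 and 8.69 CPM in IDPN-4wk. The treated animals were all above the controls but spread widely, and the highest of them was 3.26 times the lowest. From 3.58 ± 1.21 to 18.1 ± 9.87 CPM (± SD, n = 3 animals in each group), Isg15 rose 5.04-fold (log2-Fold change 2.33 ± 0.39, SE; Padj = 0.00225, edgeR).

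Both genes that respond to double-stranded RNA, Oas1a and Eif2ak2, rose. Oas1a, which makes the short oligoadenylates that switch on RNase L (ENSRNOG00000001369), was at 16.7, 10.8 and 9.13 CPM in Control and at 46.2, 56.3 and 26.1 CPM in IDPN-4wk. The groups did not overlap. The increase was 3.51-fold, from 12.2 ± 3.96 to 42.8 ± 15.4 CPM (± SD, n = 3 animals in each group), with a log2-Fold change of 1.81 ± 0.28 (SE; Padj = 0.00127, edgeR). Oas1a has close copies in the rat, and the authors' counting shared reads among them. The split between copies was uneven between libraries, and the cause of this was not tested. Oas1i, chosen after its values were seen, was at 0, 82 and 0 counts in Control and at 171, 495 and 0 counts in IDPN-4wk. The sum of the 6 Oas1 rows of the table was therefore also taken, and it rose from 27.9 ± 4.73 to 104 ± 32.7 CPM (± SD, n = 3 animals in each group), with a log2-Fold change of 1.90 ± 0.21 (SE; Padj = 0.000177, edgeR).

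Eif2ak2 encodes PKR, the kinase that halts translation by phosphorylating the initiation factor eIF2 (ENSRNOG00000048315). Its Control libraries were close together at 46.5, 47.9 and 47.8 CPM, and its IDPN-4wk libraries were at 90.5, 82.3 and 67.2 CPM. All 3 treated animals stood clear of the controls, whose SD was 0.812 CPM. The change was 1.69-fold (log2-Fold change 0.75 ± 0.11, SE; Padj = 0.000769, edgeR), and its 95% interval ran from 1.43-fold to 1.98-fold. As that interval reaches below 1.5, Eif2ak2 did not pass a test against a fold change of 1.5 itself (glmTreat of edgeR, Padj = 0.341). In RefSeq the gene overlaps 2 unnamed loci, and the library protocol keeps no strand.

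The IFIT genes rose moderately and evenly. Ifit2, which restricts viral translation (ENSRNOG00000036604), was at 19.0, 12.4 and 14.4 CPM in Control and at 29.1, 27.1 and 26.9 CPM in IDPN-4wk. The treated animals were nearly level, with the highest only 1.08 times the lowest. The mean went from 15.3 ± 3.36 to 27.7 ± 1.21 CPM (± SD, n = 3 animals in each group), a 1.81-fold increase (log2-Fold change 0.86 ± 0.15, SE; Padj = 0.00309, edgeR). Its neighbour on the chromosome, Ifit3, whose product works in a complex with other IFIT proteins (ENSRNOG00000022839), was at 6.20, 5.94 and 4.11 CPM in Control and at 10.5, 9.39 and 12.0 CPM in IDPN-4wk. Again no treated animal reached down to the controls. Ifit3 rose 1.96-fold, from 5.41 ± 1.14 to 10.6 ± 1.30 CPM (± SD, n = 3 animals in each group), with a log2-Fold change of 0.97 ± 0.21 (SE; Padj = 0.00869, edgeR). Neither passed glmTreat against a fold change of 1.5, with Padj of 0.262 for Ifit2 and 0.251 for Ifit3. Summed as a pair they rose by 0.89 ± 0.13 on the log2 scale (SE; Padj = 0.00111, edgeR), and Ifit2 held 73.6% of the pair in Control and 72.3% in IDPN-4wk.

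Among the genes that act on the genome and particles of a virus, Mx2 and Rsad2 rose while Mx1 did not pass the test. Mx2, a dynamin-like GTPase that in rodents acts in the cytoplasm (ENSRNOG00000001963), was at 28.2, 20.5 and 21.3 CPM in Control and at 98.6, 106 and 59.9 CPM in IDPN-4wk. Each treated animal was above all controls. The 3.78-fold increase, from 23.3 ± 4.21 to 88.3 ± 24.9 CPM (± SD, n = 3 animals in each group), had the smallest Padj of the 10 genes (log2-Fold change 1.92 ± 0.20, SE; Padj = 0.000131, edgeR). Rsad2, or viperin, an enzyme that makes a chain-terminating nucleotide (ENSRNOG00000007539), was at 7.94, 5.73 and 7.15 CPM in Control and at 33.5, 23.8 and 19.4 CPM in IDPN-4wk. These groups did not overlap either. Rsad2 rose 3.67-fold, from 6.94 ± 1.12 to 25.6 ± 7.22 CPM (± SD, n = 3 animals in each group), with a log2-Fold change of 1.88 ± 0.21 (SE; Padj = 0.000192, edgeR).

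Mx1, the nuclear MX protein of rodents (ENSRNOG00000001959), had the fewest reads of the 10, with 25, 30 and 31 counts in Control and 41, 46 and 33 counts in IDPN-4wk. These were 1.61, 2.10 and 2.19 CPM and 2.95, 2.37 and 2.12 CPM, so that the groups overlapped. The log2-Fold change was 0.33 (SE 0.31, Padj = 0.497, edgeR), with a 95% interval from 0.783-fold to 2.02-fold, so at this depth an increase as large as that of Ifit2 or Ifit3 could not be told from none. The 95% interval of Mx2 began at 2.78-fold, above that range, but the difference between the 2 genes was not tested. The authors' counting shared reads among close copies, so the split between Mx1 and Mx2 is less firm than their sum. Mx1 made up 8.02% of the reads of the MX pair in Control and 2.84% in IDPN-4wk, and the pair summed rose by 1.84 ± 0.19 on the log2 scale (SE; Padj = 0.000130, edgeR).

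Ifi27 (ENSRNOG00000009263) was at 239, 222 and 221 CPM in Control and at 389, 373 and 217 CPM in IDPN-4wk. In 2 treated animals it was clearly above the controls, and in the other, IDPN-4wk replicate 3, it was just under all of them. The log2-Fold change was 0.52 (SE 0.17, 95% interval from 0.14 to 0.90, Padj = 0.0573, edgeR), which missed both thresholds. Without that animal the value was 0.73 (Padj = 0.000119, edgeR), and with libraries scaled by their size alone it was 0.63 (Padj = 0.0230, edgeR), and both would be called. The call for Ifi27 thus depends on 1 animal and on the scaling.

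**Figure D3:**
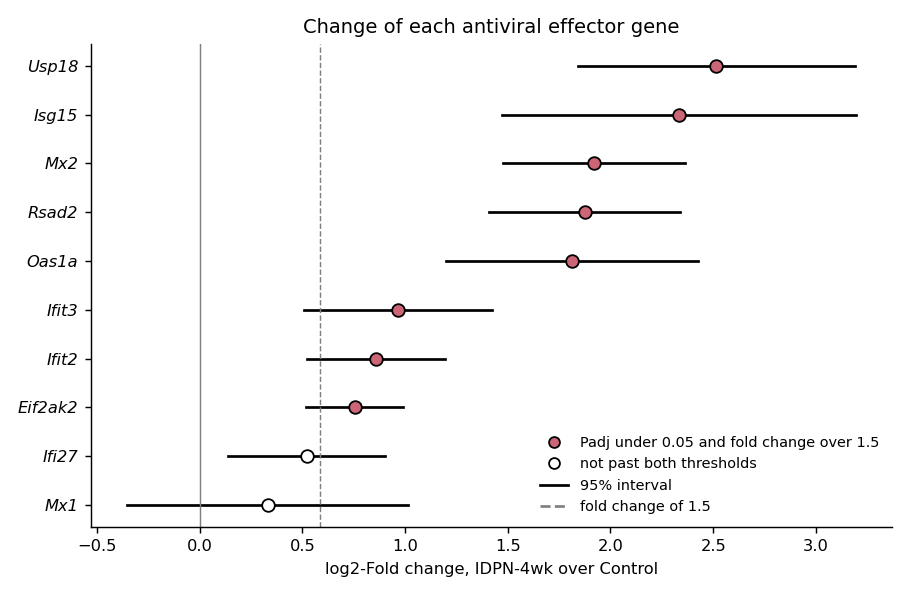
log2-Fold change of each gene in IDPN-4wk against Control from the edgeR fit (horizontal axis), with 95% intervals. Estimates of 5 genes lie from 1.81 to 2.52 and those of the other 5 from 0.33 to 0.97, and the interval of Mx1 alone spans 0.

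Ordered by the size of the change, Usp18, Isg15, Mx2, Rsad2 and Oas1a came first, with log2-Fold changes from 2.52 to 1.81. Ifit3, Ifit2, Eif2ak2, Ifi27 and Mx1 followed, from 0.97 to 0.33. The 95% intervals of neighbours in this order overlapped throughout, including those of Oas1a (1.20 to 2.43) and Ifit3 (0.51 to 1.43) on either side of the gap. Differences between genes were not tested.

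Levels of the effectors differed among the animals of the IDPN-4wk group. IDPN-4wk replicate 3 was the lowest of the treated animals in 9 of the 10 genes, Ifit3 being the exception, and it was the lowest in 35.1% of all tested genes and in 52.5% of the 444 upregulated genes. It still lay above every control in 8 of the 10 genes, and the other treated animals did so in all 10. Relative to the Control mean, the median of the 10 genes was 1.46, 1.31 and 1.14 log2 units in IDPN-4wk replicates 1, 2 and 3. The spread between treated animals was wide for Isg15, Oas1a and Usp18, whose highest animal was 3.26, 2.16 and 2.04 times the lowest, and narrow for Ifit2 and Ifit3, at 1.08 and 1.28 times. The median SD of the log2 level between treated animals was 0.42 for the 10 genes and 0.15 for all tested genes. Controls varied too: the SD was 0.28 for the 10 genes and 0.14 for all, and Control replicate 1 was the highest control in 8 of the 10 and in 33.1% of all tested genes.

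**Figure D4:**
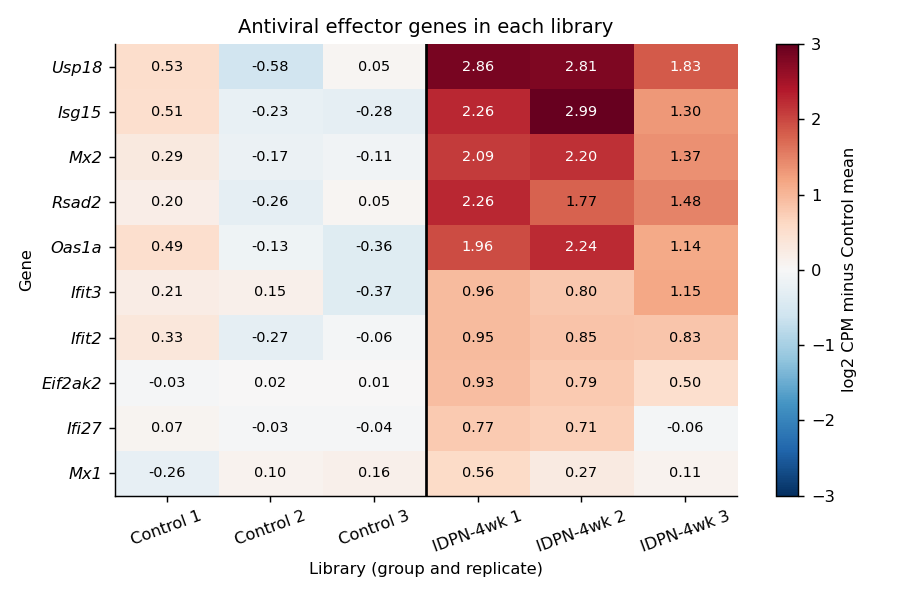
Heat map of the 10 genes (rows) in the 6 libraries (columns); colour and printed value are the log2 CPM less the gene's Control mean, and the black line parts Control from IDPN-4wk. The column of IDPN-4wk replicate 3 holds the lowest treated value in 9 of 10 rows, and only its values for Ifi27 and Mx1 fall within or below those of the controls.

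Markers of the cells that the tissue could hold were read in the same libraries, in which 6.62% of all tested genes were downregulated. Summed markers of hair cells ran from 2243 to 2362 CPM in Control and from 1176 to 1485 CPM in IDPN-4wk, with 6 of 10 downregulated. Those of supporting cells ran from 12565 to 13993 and from 7010 to 8614 CPM, with 4 of 10 downregulated. The largest part of the supporting cell sum was Otog, with a Control mean of 6262 CPM and an IDPN-4wk mean of 3199 CPM. Among the 10 supporting cell markers, 9 estimates were lower and 1 was higher after treatment, with a median log2-Fold change of -0.43. The groups overlapped for Lfng (-0.52), Sox2 (-0.27), Jag1 (-0.04) and Hes1 (0.36). Macrophage markers summed to 160, 161 and 117 CPM in Control and to 197, 97.7 and 130 CPM in IDPN-4wk, and 1 of 11 (C1qb) was upregulated. Their directions were mixed, with 5 estimates higher and 6 lower in IDPN-4wk and a median log2-Fold change of -0.08. Of the treated animals, replicate 1, with the highest macrophage sum, was the highest in 6 of the 10 effectors, and replicate 2, with the lowest, in 3. Red blood cell genes summed to 264, 274 and 315 CPM in Control and to 429, 626 and 306 CPM in IDPN-4wk. As in most effectors, replicate 3 was the lowest treated library. Of 5 rows tested 2 were upregulated, Hbb (log2-Fold change 0.66, Padj = 0.0380, edgeR) and 1 row of Hba-a2 (0.68, Padj = 0.0319, edgeR), with overlapping groups in both. Another row of Hba-a2 was not called (0.69, Padj = 0.0532, edgeR). The part of all these cells in the results was not tested.

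Markers of other immune and tissue cells were mixed. T and NK cell markers summed to between 16.4 and 19.4 CPM in Control and between 12.9 and 16.0 CPM in IDPN-4wk, and 0 of the 2 tested were called. These were Cd4, at 230, 209 and 144 counts in Control and 152, 107 and 67 in IDPN-4wk (log2-Fold change -0.95, Padj = 0.0510, edgeR), and Cd3g, at 51, 56 and 73 counts and 62, 141 and 136 counts (0.73, Padj = 0.0971, edgeR). Of the rest, Klrd1 and Gzmb were at 0 counts in every library and Cd3e, Cd3d, Cd8a, Nkg7 and Prf1 at no more than 8. The plasmacytoid dendritic cell markers summed to between 119 and 129 CPM in Control and between 98.1 and 104 CPM in IDPN-4wk, nearly all of it from Tcf4, which reached 1961 counts, and 0 of the 2 tested were called. Bst2, which is also in the list of restriction factors, was at 30, 48 and 34 counts in Control and 112, 115 and 40 in IDPN-4wk (log2-Fold change 1.10, Padj = 0.0746, edgeR), while Siglech was at 0 and Ccr9, Flt3 and Spib reached 1, 3 and 16 counts. The B and plasma cell markers summed to at most 1.16 CPM and the neutrophil markers to at most 3.96 CPM in any library. Of the endothelial markers, 0 of 5 were called, and 1 of 6 Schwann cell markers, 1 of 6 stromal, 2 of 6 neuronal and 3 of 4 dark cell markers were downregulated, while 1 stromal (Col1a1) and 1 neuronal marker (Nefh) were upregulated. The part of these cells was not tested.

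The interferons themselves were hardly seen. Of 12 ligand genes looked for, 11 had a row, 9 of them with 0 counts in all 6 libraries, which allows up to 0.155 to 0.216 CPM depending on the library. Counts came only from Ifnk, at no more than 1, and from Ifne, at 6, 0 and 0 counts in Control and 0, 3 and 3 counts in IDPN-4wk, and both were chosen after their values were seen. No ligand gene could be tested.

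The other genes of the pathway were taken from 10 fixed lists. Without the 10 effectors, 87 of these genes were tested, of which 25 (28.7%) were upregulated and 1 was downregulated, with a median log2-Fold change of 0.37. In the list of ISGF3 and IRF genes, which holds the transcription factors of the response, 4 of 14 were upregulated. These were Irf7 (log2-Fold change 1.56, Padj = 4.85e-05, edgeR), Irf9 (1.17, Padj = 0.000192, edgeR), Irf1 (0.97, Padj = 0.00122, edgeR) and Stat2 (0.67, Padj = 0.00203, edgeR), whose fold change fell below 1.5 without Control replicate 3 (0.58) or IDPN-4wk replicate 2 (0.56). Leaving out 1 library at a time gave from 19 to 29 upregulated genes in the 10 lists, and scaling by library size alone gave 34.

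Beside Isg15 and Usp18, the ISG15 conjugation list had 4 of 8 genes upregulated and 0 downregulated. Uba7, the activating enzyme for ISG15, stood at a log2-Fold change of 0.97 (Padj = 0.00150, edgeR), its conjugating enzyme Ube2l6 one of 0.78 (Padj = 0.00924, edgeR) and its ligase Herc6 one of 0.97 (Padj = 0.0166, edgeR). The remaining one was the ligase Trim25, chosen after its values were seen, at 0.68 (Padj = 0.00119, edgeR). The call for Herc6 was lost without Control replicate 3 (0.88, Padj = 0.0640, edgeR) or without IDPN-4wk replicate 1 (0.72, Padj = 0.0741, edgeR).

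Of the other OAS and RNase L genes, 3 of 8 were upregulated. Oas1b, a close copy of Oas1a, went from 7.68, 6.15 and 6.58 CPM in Control to 43.9, 42.2 and 25.9 CPM in IDPN-4wk (log2-Fold change 2.45, Padj = 3.72e-05, edgeR), with no overlap. The OAS-like genes Oasl2 and Oasl had log2-Fold changes of 1.72 (Padj = 0.00207, edgeR) and 1.07 (Padj = 0.0407, edgeR). The call for Oasl was lost when Control replicate 1 (1.19, Padj = 0.0651, edgeR), 2 (0.90, 0.129) or 3 (1.14, 0.0837) or IDPN-4wk replicate 1 (0.78, 0.169) or 3 (1.11, 0.0640) was left out. Oas2 and Oas3 reached only 12 and 11 counts and were not tested, and both were chosen after their values were seen.

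The IFIT and IFITM list had 3 of 5 other genes upregulated: Ifitm1 (log2-Fold change 1.46, Padj = 0.0114, edgeR) and Ifitm3 (1.25, Padj = 0.00363, edgeR), which hinder the entry of viruses at membranes, and Ifit1 (0.98, Padj = 0.00215, edgeR), which binds RNA without the host's cap methylation. Without IDPN-4wk replicate 2 Ifitm1 was no longer called (1.19, Padj = 0.0517, edgeR). Ifi27l2b, the neighbour of Ifi27 on the chromosome and the only other tested gene of its family list, was at 0.517, 0.349 and 0.425 CPM in Control and at 4.39, 12.6 and 1.22 CPM in IDPN-4wk. It was upregulated (log2-Fold change 3.80 ± 0.77, SE; Padj = 0.00615, edgeR), on at most 8 counts in a control, and the value without IDPN-4wk replicate 2 was 2.66 and with limma-voom 3.27 with a Padj of 0.0712. As for Ifi27, replicate 3 was the lowest treated animal.

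The lists around PKR and around the dynamin-like proteins and viperin had 0 genes upregulated beside Eif2ak2, Mx2 and Rsad2. In the eIF2alpha kinase list, 0 of 7 were called: the kinase inhibitor Dnajc3 stood at a log2-Fold change of -0.48 (Padj = 0.0134, edgeR), the eIF2 subunit gene Eif2s1 one of 0.28 (Padj = 0.0498, edgeR) and the kinase gene Eif2ak3 one of -0.23 (Padj = 0.0914, edgeR). Dnajc3 would be called downregulated without IDPN-4wk replicate 1 (-0.62, Padj = 0.00558, edgeR). Cmpk2, a nucleotide kinase gene that lies beside Rsad2, stood at a log2-Fold change of 0.55 (Padj = 0.00586, edgeR) and missed the fold change threshold, which it passed with libraries scaled by their size alone (0.65, Padj = 0.00204, edgeR). Of the classical dynamins, Dnm3 was downregulated (-1.22, Padj = 0.000950, edgeR) and Dnm1 was at -0.68 (Padj = 0.0832, edgeR).

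Among other restriction factors, 2 of 19 were upregulated, the nuclear body genes Sp100 (log2-Fold change 1.07, Padj = 0.0215, edgeR) and Pml (0.62, Padj = 0.0126, edgeR), and the zinc finger gene Zc3hav1 was at 0.51 (Padj = 0.00243, edgeR), under the fold change threshold, and at 0.62 (Padj = 0.000859, edgeR), past it, with libraries scaled by their size alone. Sp100 lost its call without Control replicate 2 (1.08, Padj = 0.0603, edgeR) or 3 (1.00, 0.0732) or IDPN-4wk replicate 1 (1.04, 0.0675) or 2 (1.09, 0.0573), and Pml without IDPN-4wk replicate 2 (0.42). Of the other interferon-stimulated genes, 8 of 21 were upregulated, led by the chemokine genes Cxcl11 (log2-Fold change 2.45, Padj = 0.000519, edgeR) and Cxcl10 (1.33, Padj = 0.00302, edgeR) and by Rtp4 (1.31, Padj = 0.00328, edgeR). Cxcl10, like Ifit3 among the effectors, was highest in IDPN-4wk replicate 3, at 8.70, 6.09 and 9.79 CPM in the treated animals and from 3.22 to 3.26 CPM in Control.

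**Figure D5:**
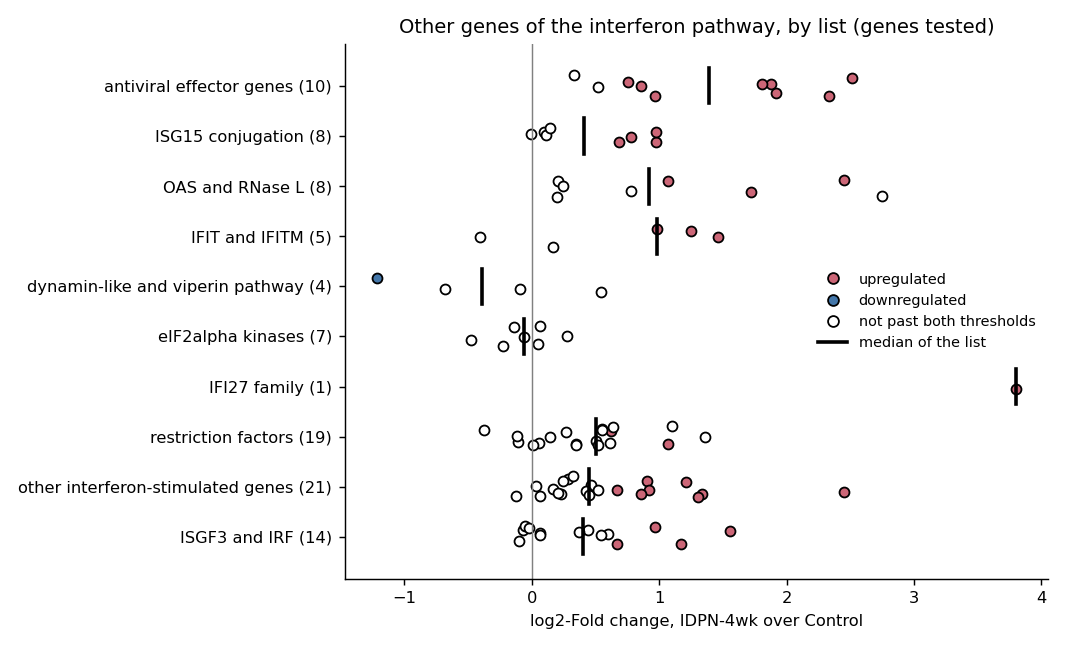
log2-Fold change in IDPN-4wk against Control (horizontal axis) of every tested gene of the pathway lists, 1 row per list and 1 point per gene, with vertical bars at the medians and the 10 effectors alone in the top row; filled points passed both thresholds. In the rows below the effectors, 25 of 87 genes are upregulated and 1 is downregulated.

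The tested genes whose levels over the 6 libraries were most like the median profile of the effectors were Qrfpr, Tmem158, Dhx58, Arl11 and Irf9. Likeness was the root mean square difference of log2 levels, which was 0.0922 for Qrfpr, a peptide receptor gene, and 0.111 for Tmem158, a membrane protein gene. For Dhx58, which encodes the RNA sensor LGP2, it was 0.121, for Arl11, of the ARF-like GTPases, 0.135, and for Irf9 0.166. The effectors themselves lay from 0.314 (Ifit2) to 0.910 (Usp18) from their own median. Since these 5 genes were picked for following a median profile that is higher in IDPN-4wk, their rise is set by the choice and is given without a test: the log2-Fold change was 1.46 for Qrfpr, 1.38 for Tmem158 and 1.27 for both Dhx58 and Arl11.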

How the data were processed

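RNA was reverse transcribed with an oligo-dT primer (SMART-seq2), and each library is 1 animal. The authors mapped reads with STAR 2.5.3a to Rnor6.0 and deposited expected counts per gene from RSEM; the submitters' processing notes give RSEM 1.3.0. The deposited expected counts were all whole numbers. RSEM shares reads among close copies, so sums of paralogs were also tested.

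Groups came from the treatment label. Low genes were removed by filterByExpr (at least 10 counts, 15 in total), TMM set the scale of each library, and edgeR 4.0.16 (R 4.3.3) gave quasi-likelihood tests. SEs came from the quasi F statistic. The log2 profiles used a prior count of 2. Counts of 0 were read as up to 3 counts, and such limits cover counting error only. The computation was tested on simulated data. Alternatives were DESeq2 1.42.0, limma-voom (limma 3.58.1), glmTreat, other scalings and filters, and leaving out each library.

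The members and lists were chosen with earlier results of these data known. Named were all members; in each list up to 3 called non-members with the largest change, or, with fewer called, those with the smallest p; Stat2, Irf7 and Irf9; and the 5 genes most like the members' median profile, without provisional names. Gene order and promoters came from RefSeq GRCr8, and no coordinates of Rnor6.0 were used. Of the genes the rule names, 1 is not reported here.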

Additional observations from a re-analysis of the deposited data

How the results depend on the processing

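No effector gene changed direction under any alternative run. The number of effectors upregulated stayed at 8, or 9 with library size alone and without IDPN-4wk replicate 3, except with glmTreat against a fold change of 1.5, which called 5. There the log2-Fold changes of Ifit2 (0.86, Padj = 0.262), Ifit3 (0.97, Padj = 0.251) and Eif2ak2 (0.75, Padj = 0.341) were no longer called, since their intervals reach below that fold change, and 8 of the other pathway genes were called in place of 25. Ifi27 became called with library size alone (0.63) and ranged from 0.37 to 0.73 when 1 library was left out; the cause was not tested. With a mean count of at least 50, Mx1 was not tested. Over all genes, 1394 differed and 444 were higher, against 453 and 99 with glmTreat and 2778 and 1132 with Padj alone. Library size alone called 762 genes higher and moved the share of lower calls from 68.1% to 50.6% and the median of all genes from 0.02 to 0.13, while the effectors' median less that of all genes was 1.37 under both scalings. The sum of the Oas1 rows was chosen after seeing the data. No paired analysis was possible because the labels give no replicate numbers; the animal codes end in letters that occur once in each group, and the labels do not say that these mark a pairing. Depth limits Mx1, the interferon ligands, Ifi27l2b and Qrfpr, and with 3 animals a group the p-values rest on few residual degrees of freedom.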
